A study of Mus musculus with 18 samples.

Results

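The transcription factor ATF4 has a set of target genes that make or import amino acids, and 10 of them were followed in livers of mice whose ribosomes decode less accurately. They were chosen by name, as textbook ATF4 targets in amino acid synthesis and transport, with earlier results of these data known. All 10 were among the 22524 genes counted in each library, and 9 of them were among the 13353 genes that passed the filter on low counts (10 or more counts in 50% or more of the libraries from either genotype). *Phgdh* did not pass.

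RNA-Seq libraries came from whole liver of 18 female C57BL/6 mice aged 15 months. The 10 A226Y mice were heterozygous for a knock-in *Rps2*-A226Y allele, made in 129/Sv embryonic stem cells and backcrossed to C57BL/6, which lowers the accuracy of decoding on the ribosome. The 8 wild-type controls (WT) also expressed Cre recombinase. The allele is switched on by CMV-Cre, which acts in all tissues, through removal of a transcriptional stop, and this removal is partial: A226Y mice are mosaic, and cells that keep the stop carry a single active *Rps2* copy. Reads from the mutant and the normal allele cannot be told apart in gene counts. Nothing in the labels ties mice to litters, cages or days, and each library came from its own numbered mouse.

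ATF4 is the effector of the integrated stress response. Kinases that sense amino acid shortage, misfolded protein in the endoplasmic reticulum or other stress phosphorylate eIF2 alpha, which slows translation in general while the *Atf4* mRNA is translated more. ATF4 then binds amino acid response elements and raises enzymes that make asparagine, serine, glycine, proline and cysteine, enzymes of mitochondrial one-carbon metabolism, and transporters that bring amino acids in. In the liver several of these enzymes are also under hormonal control and follow feeding.

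The element that ATF4 shares with C/EBP partners was searched, as TGATGNAA on both strands, in RefSeq promoters of build GRCm38.p6 that run from 250 bases before to 50 bases after the start site. A promoter was found for 9 of the 10 members (there was none for *Cth*), and 1 of the 9, *Asns*, held the element, against 4.51% of all 27025 gene symbols with a promoter in the table (3.97% of the 32851 promoters, since a gene can have several). The shorter form TGATGNA, which contains the longer one, was held by 3 of the 9 members and by 13.8% of all symbols (12.2% of promoters). Matches in *Asns* and *Mthfd2* are printed below because they show where these letters lie near the start; capitals mark the match, and each run is read on the gene's strand.
*Asns*, chr6:7693214-7693243, minus strand, match starting 23 bases before the RefSeq start: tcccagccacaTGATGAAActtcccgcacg
*Mthfd2*, chr6:83317772-83317800, minus strand, shorter form starting 185 bases before the start: agatttttgttTGATGAAtgaatgaatga
A match is a run of letters and not a shown binding site, and elements in introns or farther upstream were not searched.

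Libraries held 23850565 to 62126131 counts in A226Y mice (median 32058379) and 25869192 to 34918732 in WT (median 31702989). The targeted gene followed the labels: *Rps2* was at 68.6 ± 13.3 CPM (read counts scaled to a common library size; SD, n = 10) in A226Y mice and 114 ± 13.03 CPM (n = 8) in WT, and all A226Y mice were below all WT mice. The log2 fold change of *Rps2* was -0.73 (SE 0.11, edgeR adjusted p = 0.000772). Hepatocyte markers summed to 96490 to 169400 CPM in A226Y mice and 113200 to 200600 CPM in WT. A226Y mouse 29 stood apart, with the lowest hepatocyte marker sum and the highest Kupffer cell and macrophage marker sum of the 18 (1083 CPM, against an A226Y median of 377 and a WT range of 416 to 841), so results that rest on it are also given without it. In whole liver, fewer cells of a type and less RNA per cell cannot be told apart.

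Of the 9 members tested, 2 rose in A226Y liver (*Cth* and *Slc38a2*), 1 fell (*Shmt2*) and 6 did not pass an adjusted p of 0.05. Across all tested genes, 7.27% were called higher (971 genes) and 7.03% lower (939 genes). The members were split in direction, with 5 positive and 4 negative log2 fold changes; 1 of the positive ones, *Asns*, passed the filter through A226Y mice alone. In the GRCm38 annotation the called members are *Cth* (ENSMUSG00000028179, chr3:157894248-157925077), *Slc38a2* (ENSMUSG00000022462, chr15:96687392-96699730) and *Shmt2* (ENSMUSG00000025403, chr10:127517123-127522444), and all 10 members lie on the minus strand, as do 49.9% of listed genes. The median log2 fold change of the 9 tested members was 0.10, beside -0.00 over all tested genes. It counts *Asns*, whose positive value the filter favoured, and without *Asns* it would lie between *Mthfd2* (-0.07) and *Psph* (0.10). The median size of the change regardless of sign was 0.48 on the log2 scale, beside 0.14 over all tested genes. Of the sizes above 0.48, those of *Asns*, *Psat1* and *Aldh18a1* came from low counts and were not called. The tested genes were not matched to the members for level. Without A226Y mouse 29 the members called were 1 higher (*Cth*) and 2 lower (*Shmt2* and *Aldh18a1*). That fit called 2560 genes in all, against 1910 with the mouse, so counts of calls without it stand beside a larger total.

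**Figure D1:**
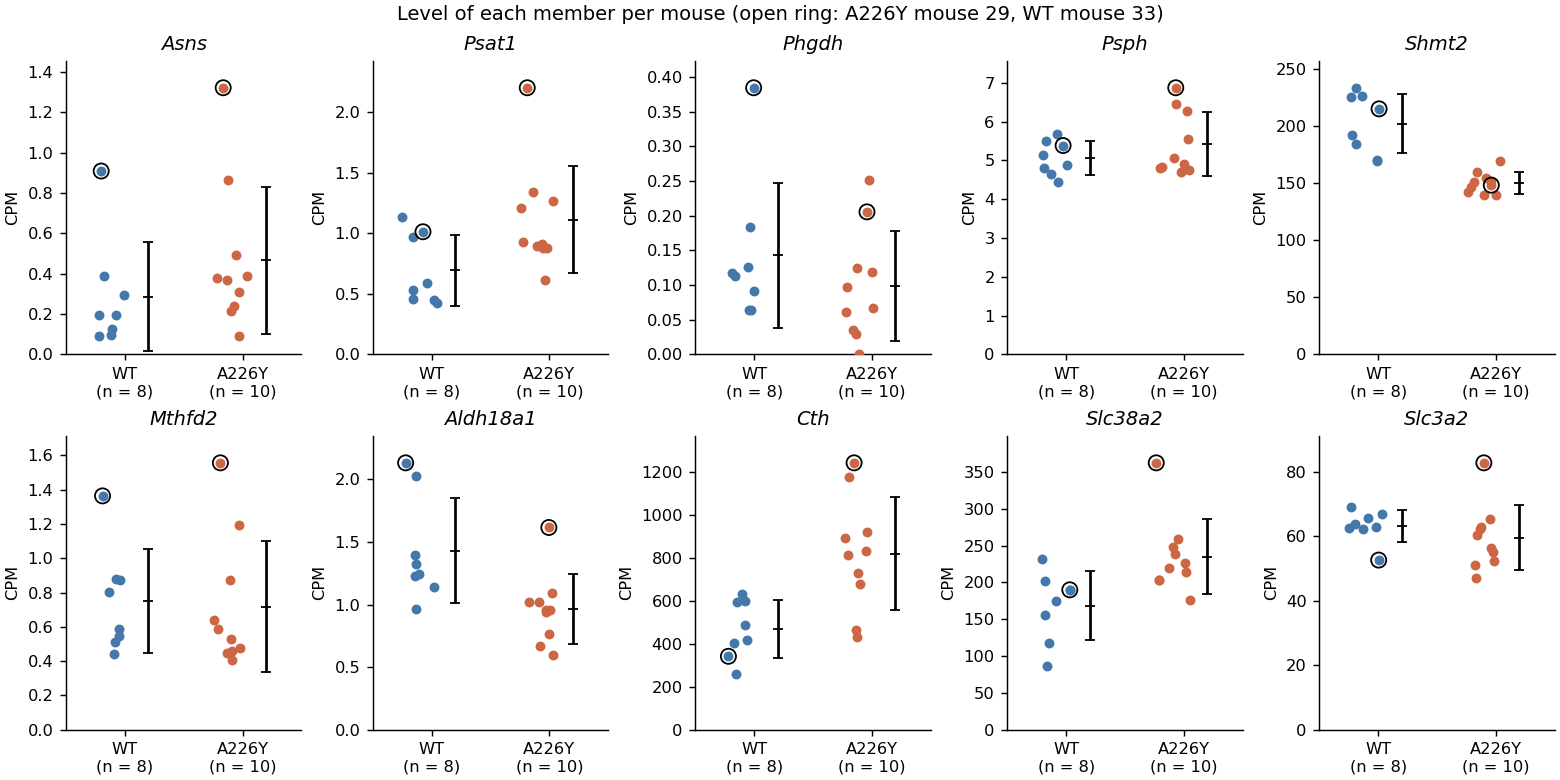
Level of each of the 10 members in CPM (linear axis from 0), with 1 point per mouse for WT (n = 8) and A226Y (n = 10), and the mean ± SD as a bar beside the points. *Shmt2* is the member whose genotypes do not overlap, and A226Y mouse 29 (ringed, as is WT mouse 33) is the highest of its genotype in 8 of the 10 members.

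*Asns* encodes asparagine synthetase, which makes asparagine from aspartate and glutamine. Its level was 0.09 CPM at the lowest, 0.37 at the median and 1.32 at the highest in A226Y mice, and 0.09, 0.20 and 0.91 CPM in WT. The genotypes overlapped over nearly the whole range, with A226Y mouse 29 and WT mouse 33 at the top of each. These levels rest on 3 to 45 counts per library, and *Asns* passed the filter through A226Y mice alone, with 10 or more counts in 6 of 10 A226Y and 2 of 8 WT libraries, so the filter favoured a positive value. The log2 fold change was 0.72 (SE 0.48, 95% interval -0.22 to 1.66), which did not pass (edgeR adjusted p = 0.328), and it ranged from 0.39 to 1.24 when each mouse was left out in turn, the lowest value being that without A226Y mouse 29 and the highest that without WT mouse 33 (edgeR adjusted p = 0.0773).

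Serine is made from a glycolytic intermediate by 3 enzymes in a row, encoded by *Phgdh*, *Psat1* and *Psph*. *Phgdh*, the first step, had few reads in these livers: counts per library ran from 0 to 7 in A226Y mice and from 2 to 11 in WT, and its level was 0.10 ± 0.08 CPM (SD, n = 10) and 0.14 ± 0.10 CPM (n = 8). It was tested in the fit with no filter beyond 1 count, where its log2 fold change was -0.52 (SE 0.48, edgeR adjusted p = 0.527). *Psat1*, the aminotransferase of the second step, was at 0.61, 0.92 and 2.20 CPM (lowest, median, highest) in A226Y mice and at 0.43, 0.56 and 1.14 CPM in WT. Of the WT mice, 5 were below every A226Y mouse, and 4 of the A226Y mice were above every WT mouse, so the ranges overlapped in part. The log2 fold change of *Psat1* was 0.68 (SE 0.25), the unadjusted p was 0.0137 and the adjusted p was 0.0731 (edgeR), and 9 of 10 A226Y mice exceeded the mean of the WT mice. *Psph*, the phosphatase that releases serine, was more even, at 4.71, 4.99 and 6.88 CPM in A226Y mice and 4.46, 5.02 and 5.68 CPM in WT. Its log2 fold change of 0.10 (SE 0.09, 95% interval -0.08 to 0.28) did not pass (edgeR adjusted p = 0.485), and it was 0.06 without A226Y mouse 29. The annotated *Psph* gene overlaps that of *Cct6a*, a chaperonin subunit on the opposite strand. The mean level of *Cct6a* was 109 CPM in A226Y mice and 95.4 CPM in WT, far above that of *Psph*. It was 1.15-fold higher in A226Y mice (edgeR adjusted p = 0.038), a call that held in 8 of the 18 fits that left out 1 mouse. Its part in the counts of *Psph* was not tested. A processed pseudogene, *Gm3329*, lies within *Psat1* on the opposite strand, and another, *Gm15801*, within *Aldh18a1* on the same strand. Neither was among the genes counted, and whether reads were shared with them was not tested.

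*Shmt2* and *Mthfd2* encode mitochondrial enzymes that take a one-carbon unit from serine and carry it on folate. *Shmt2*, serine hydroxymethyltransferase, fell: A226Y mice were at 139.5, 149.6 and 169.5 CPM (lowest, median, highest) and WT mice at 170.0, 204 and 234 CPM. Every A226Y mouse was below every WT mouse, but the margin was narrow, since the highest A226Y mouse (mouse 15) was at 169.5 CPM and the lowest WT mice (06 and 04) at 170.0 and 170.5 CPM. Genes without overlap in this direction made up 0.285% of all tested genes (38 genes), and genes without overlap in the other direction 0.352% (47 genes). The mean was 150.3 ± 9.32 CPM (SD, n = 10) against 202 ± 26.1 CPM (n = 8), a log2 fold change of -0.43 (SE 0.07, edgeR adjusted p = 0.00159). An exact two-sided permutation test over all 43758 divisions of the mice gave p = 2.29e-05, the smallest it can give (adjusted p = 0.00517). Over the fits that omitted 1 mouse, *Shmt2* ranged from -0.46 to -0.40 on the log2 scale and its edgeR adjusted p was at most 0.00444. With 4 surrogate variables in the fit, which are estimated from the data, it was -0.25 and no longer passed (edgeR adjusted p = 0.117). The 3′ end of *Shmt2* overlaps *Ndufa4l2* on the opposite strand, whose level was 0.85 CPM in A226Y mice and 1.25 CPM in WT, far under that of *Shmt2*.

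*Mthfd2*, the mitochondrial methylene-tetrahydrofolate dehydrogenase that is raised in growing and stressed cells, was low. Its level was 0.41, 0.56 and 1.56 CPM in A226Y mice and 0.44, 0.70 and 1.36 CPM in WT, from 14 to 53 counts per library. The genotypes overlapped, and as for *Asns* the top animals were A226Y mouse 29 and WT mouse 33. Its log2 fold change was -0.07 (SE 0.29, edgeR adjusted p = 0.893), with a 95% interval of -0.64 to 0.49. Its sign turned when A226Y mouse 23 (0.00) or WT mouse 33 (0.10) was left out, and it was -0.28 without A226Y mouse 29 and -0.46 with surrogate variables, neither of which passed.

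*Aldh18a1* encodes the enzyme that starts proline synthesis from glutamate. Its level was 0.60, 0.95 and 1.62 CPM in A226Y mice and 0.97, 1.28 and 2.13 CPM in WT. Of the A226Y mice, 6 were below every WT mouse, and A226Y mouse 29 was again the highest of its genotype. The log2 fold change was -0.57 (SE 0.19) with an adjusted p of 0.0505 (edgeR), which lies just outside the threshold. Without A226Y mouse 29 it was -0.69 with an adjusted p of 0.0114 (edgeR), and without WT mouse 06 it was -0.64 with an adjusted p of 0.029 (edgeR). The other 16 fits that left out 1 mouse did not pass, with adjusted p up to 0.116 (edgeR, without WT mouse 14), and the value was -0.23 with surrogate variables (edgeR adjusted p = 0.585).

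*Cth* encodes cystathionine gamma-lyase, which releases cysteine in the last step of transsulfuration, and it rose. A226Y mice were at 434, 823 and 1243 CPM (lowest, median, highest) and WT mice at 258, 453 and 633 CPM. Of the 10 A226Y mice, 8 were above every WT mouse, and mice 22 and 05 lay within the WT range. The mean was 818 ± 263 CPM (SD, n = 10) against 467 ± 135 CPM (n = 8), a 1.75-fold difference (log2 fold change 0.81, SE 0.21, edgeR adjusted p = 0.0139). The exact permutation p was 0.00347 (adjusted p = 0.0352). The call held when any one mouse was left out, with a log2 fold change from 0.72 to 0.88, and was 0.72 with an adjusted p of 0.0158 (edgeR) without A226Y mouse 29. It was lost with surrogate variables, where the value was 0.28 (edgeR adjusted p = 0.501).

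*Slc38a2* and *Slc3a2* stand for transport. *Slc38a2* encodes SNAT2, a sodium-coupled importer of small neutral amino acids that is raised on amino acid shortage. Its level was 176, 223 and 363 CPM in A226Y mice and 87.0, 182 and 232 CPM in WT. Each of the 10 A226Y mice exceeded the mean of the WT mice (169 CPM) and 4 exceeded every WT mouse, while WT mouse 14 lay at the bottom and A226Y mouse 29 at the top. The log2 fold change was 0.48 (SE 0.16) and the adjusted p 0.0489 (edgeR), just inside the threshold. Without A226Y mouse 29 the value was 0.39 with an adjusted p of 0.0624 (edgeR), and the adjusted p was under 0.05 in 3 of the 18 fits that left out 1 mouse. With surrogate variables it was 0.20 (edgeR adjusted p = 0.623). The exact permutation p over all mice was 0.00366 (adjusted p = 0.0361). *Slc3a2* encodes the heavy chain CD98hc, which pairs with light-chain exchangers at the cell surface. It was at 46.9, 58.4 and 82.8 CPM in A226Y mice and 52.6, 63.3 and 68.9 CPM in WT, with overlapping genotypes. Its log2 fold change was -0.09 (SE 0.09, 95% interval -0.26 to 0.08, edgeR adjusted p = 0.534). Without A226Y mouse 29 it was -0.15 (edgeR adjusted p = 0.123), and without that mouse and WT mouse 33 it was -0.18 (edgeR adjusted p = 0.051).

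**Figure D2:**
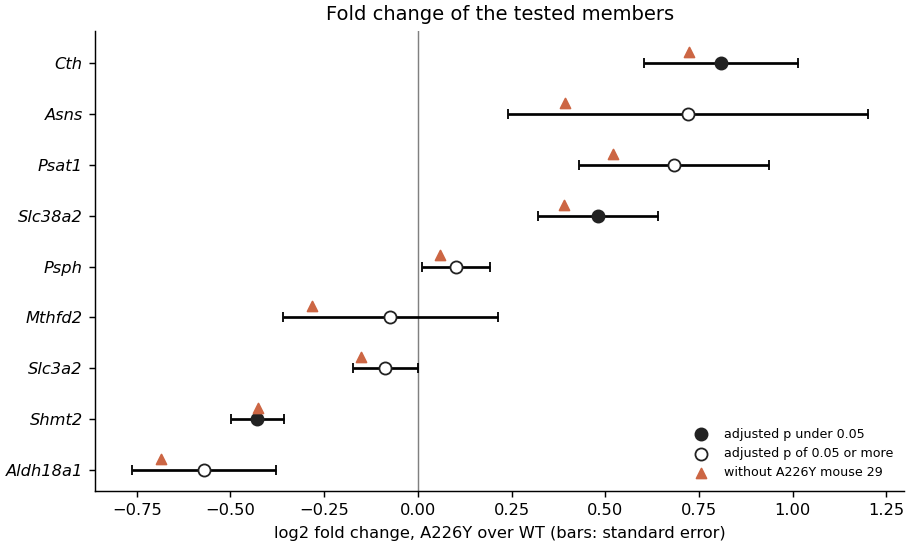
Log2 fold change (A226Y over WT) of the 9 tested members with its standard error; filled points had an edgeR adjusted p under 0.05, and triangles give the value without A226Y mouse 29. *Cth* and *Slc38a2* lie to the right and *Shmt2* to the left as called members, and leaving out mouse 29 moved *Slc38a2* from 0.48 to 0.39.

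Scaled by transcript length, the members spanned a wide range of levels in liver, and these values are means over all 18 mice. *Cth* was highest at 365 CPM per kilobase, then *Shmt2* at 75.8, *Slc38a2* at 44.1, *Slc3a2* at 21.7 and *Psph* at 3.04. The remaining members were under 1, with *Psat1* at 0.35, *Mthfd2* at 0.35, *Aldh18a1* at 0.33, *Asns* at 0.19 and *Phgdh* at 0.06 CPM per kilobase. The order of *Psat1*, *Mthfd2* and *Aldh18a1* differed between genotypes, at 0.43, 0.34 and 0.27 in A226Y mice and 0.27, 0.36 and 0.41 CPM per kilobase in WT. The 3 called members were the 3 highest by this measure.

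A226Y mouse 29 was the highest of its genotype in 8 of the 10 members, and its median deviation from the WT mean over the members was 1.07 on the log2 scale, against -0.10 to 0.45 in the other A226Y mice and -0.34 to 0.23 in WT mice. WT mouse 33 was the highest WT mouse in 4 of the 10 members. *Shmt2* did not follow mouse 29: there it was at 148 CPM, near the A226Y median of 149.6.

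**Figure D3:**
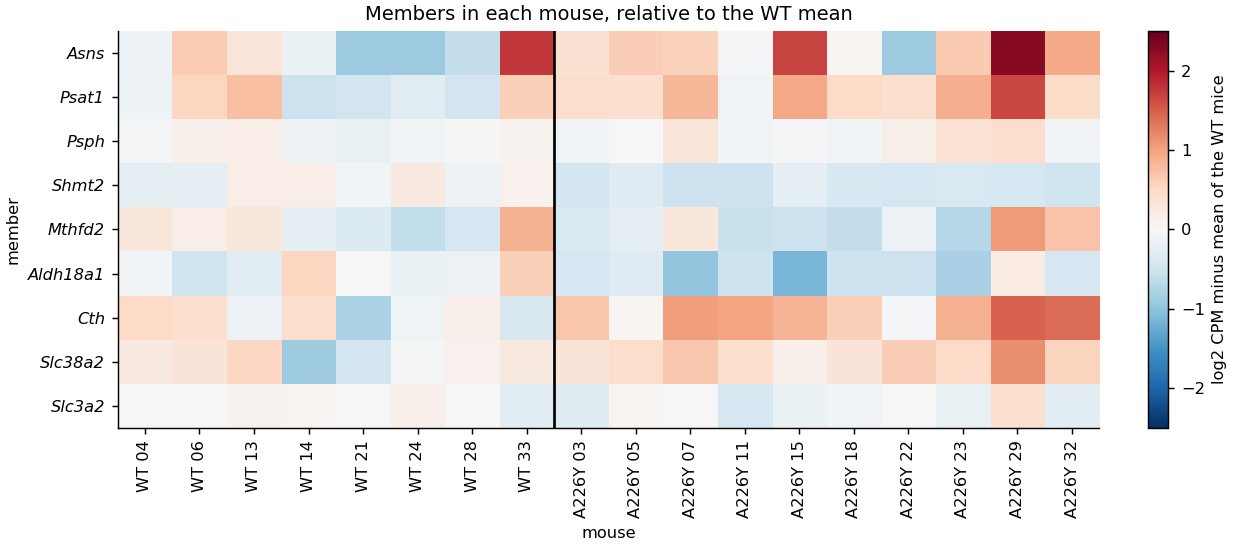
Log2 CPM of the 9 tested members in each of the 18 mice minus the mean of the WT mice (colour scale from -2.5 to 2.5). The column of A226Y mouse 29 is red for most members, and the *Shmt2* row is blue in all A226Y mice.

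To see how the members varied together within genotypes, the genotype mean was subtracted from log2 CPM and members were correlated over the 18 mice (45 pairs, permutation within genotype with 100000 resamples). Of the 45 pairs, 38 had a positive Pearson's r, and the median r was 0.25, or 0.14 without A226Y mouse 29. Some positive pairs turned negative without that mouse, and none turned the other way. Among them were *Asns* with *Slc3a2* (0.10 to -0.34) and *Psat1* with *Aldh18a1* (0.01 to -0.36). After adjustment over the 45 pairs, 2 pairs passed for both coefficients. The first was *Asns* with *Psat1*, with r = 0.79 (permutation p = 0.00022, adjusted p = 0.0033) and rho = 0.82 (permutation p = 0.00012, adjusted p = 0.0027). Its r was 0.79 within A226Y mice, 0.79 within WT and 0.72 without mouse 29 alone. It was 0.66 without the 2 mice farthest from the median of *Asns*, the first gene of the pair (A226Y mouse 29 and WT mouse 33). The second was *Psph* with *Slc38a2*, with r = 0.70 (permutation p = 0.00011, adjusted p = 0.0027) and rho = 0.78 (permutation p = 0.00011, adjusted p = 0.0027). Its r was 0.69 without A226Y mice 29 and 23, the 2 farthest from the median of *Psph*, and 0.61 without mouse 29 alone. The mice left out were chosen by the first gene only, so WT mouse 14, the lowest in *Slc38a2*, stayed in. Over all 18 mice *Shmt2* was the member with the most negative values, down to r = -0.33 with *Cth*, which did not pass (permutation p = 0.181, adjusted p = 0.403). The rho of this pair was -0.42 (permutation p = 0.093, adjusted p = 0.322), and its r was -0.15 without the 2 mice farthest from the *Shmt2* median. Without A226Y mouse 29 its r was -0.34, and the lowest r was then -0.37, for *Psph* with *Aldh18a1*.

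**Figure D4:**
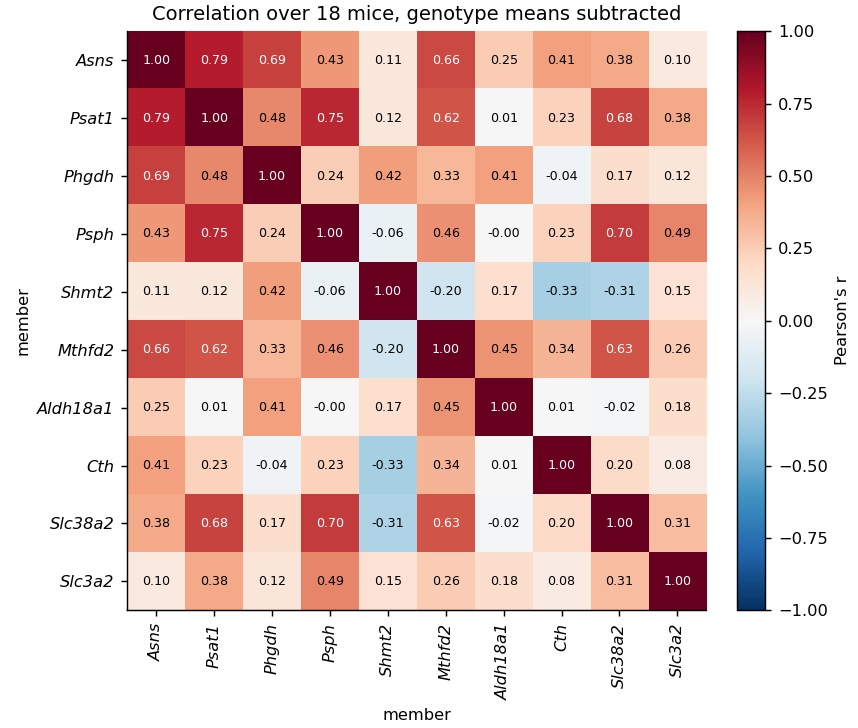
Pearson's r for each pair of the 10 members over 18 mice after subtraction of the genotype means (colour from -1 to 1, value printed in each cell). Values run from 0.79 for *Asns* with *Psat1* to -0.33 for *Shmt2* with *Cth*. The value of 0.69 for *Asns* with *Phgdh* rests on few counts, and the rho of that pair did not pass (permutation adjusted p = 0.113).

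*Atf4* itself had a log2 fold change of 0.03 (SE 0.07, edgeR adjusted p = 0.822), and none of the 8 genes for *Atf4*, the eIF2 alpha kinases and their partners was called. Translation of *Atf4*, where most of its control lies, was not measured by these libraries. Of 11 tested further ATF4 targets for amino acid synthesis and transport, none was called higher and 2 were called lower: *Slc1a4*, a neutral amino acid transporter (log2 fold change -0.60, SE 0.17, edgeR adjusted p = 0.0258), and *Slc38a7*, a lysosomal glutamine transporter (-0.29, SE 0.07, edgeR adjusted p = 0.011). Of 17 tested stress and regulatory targets of ATF4, 2 were called higher, *Trib3* at 0.82 and *Atf5* at 0.51, and 2 lower, *Chac1*, a glutathione-degrading enzyme, at -1.10 and *Eif4ebp1*, a translation repressor, at -0.33 on the log2 scale. The *Trib3* call held in 5 and the *Atf5* call in 8 of the 18 fits that left out 1 mouse, and the exact permutation test adjusted over all tested genes gave p = 0.12 for *Trib3* and 0.0802 for *Chac1*. Without A226Y mouse 29 the stress and regulatory targets gave 3 higher and 2 lower, in the fit that called 2560 genes in all.

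Neighbours of the members in the same pathways were also mixed. Among 17 serine, glycine and folate genes, *Gldc*, of the glycine cleavage system (0.52), and *Sdsl*, a serine dehydratase (0.89), were called higher, and *Shmt1*, the cytosolic counterpart of *Shmt2* (-0.39), was among those called lower. Among 18 asparagine, proline and cysteine genes, *Mat1a*, which makes the methyl donor at the head of transsulfuration, was called higher (0.47), and 4 were called lower, among them *Prodh2* (-0.45) and *Aldh4a1* (-0.52), which break down proline and hydroxyproline, and *Asrgl1*, an asparaginase (-0.32). The *Asrgl1* call held in 10 of the 18 fits that left out 1 mouse. Of 11 partners of *Slc3a2* and relatives of *Slc38a2*, 1 was called, *Slc38a3*, the hepatic glutamine transporter SNAT3, which was lower (-0.47, SE 0.11, edgeR adjusted p = 0.00896), and 2 were called lower without A226Y mouse 29.

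Markers of feeding state were listed because several members follow feeding. Of 9 fasting and glucagon response genes, all 9 had positive log2 fold changes and 3 were called higher (*Ppargc1a* 0.74, *Tat* 0.85 and *Igfbp1* 1.68). Without A226Y mouse 29 these 3 were still called, at 0.69, 0.70 and 1.05. The summed level of the 9 genes was 10900 to 16790 CPM in A226Y mice and 8571 to 12070 CPM in WT. Of 8 fed-state and insulin response genes, all 8 had negative values and those called lower included *Srebf1* (-1.22), *Pklr* (-0.75) and *Fasn* (-0.68), with sums of 1167 to 3110 CPM against 1641 to 4317 CPM. Called lower were 4 of the 8 with all mice and 5 without A226Y mouse 29. The part of feeding state in the levels of *Cth*, *Slc38a2* and *Shmt2* was not tested. Among cell type lists, 7 of 8 Kupffer cell and macrophage markers had negative values, and 1, *Clec4f*, was called lower (log2 fold change -0.65), with none of these markers at 0 in every library. Without A226Y mouse 29, 5 of the 8 were called lower, *Clec4f* (-0.83), *Cd5l* (-0.74), *Vsig4* (-0.59), *Csf1r* (-0.58) and *Cd68* (-0.56). The fit without that mouse called 2560 genes in all, against 1910 with it. All tested lymphocyte (8), erythroid (6) and dividing cell (4) markers were also negative with none called (1, 1 and 2 called lower without that mouse), and 6 of 7 cholangiocyte markers were positive. Calls in the other lists were *Cps1* (hepatocyte, 0.55), *Col1a1* and *Col3a1* (stellate cell and fibroblast, -0.77 and -0.60), *Tstd1* (cholangiocyte, -0.72) and *Cidec* (adipose, 1.67). The 8 stellate cell and fibroblast markers were split, with 4 positive and 4 negative values. Their summed level had a median of 412.5 CPM in A226Y mice and 365 CPM in WT. The 8 hepatocyte markers had 5 positive and 3 negative values. The part of cell makeup in the members' levels was not tested.

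**Figure D5:**
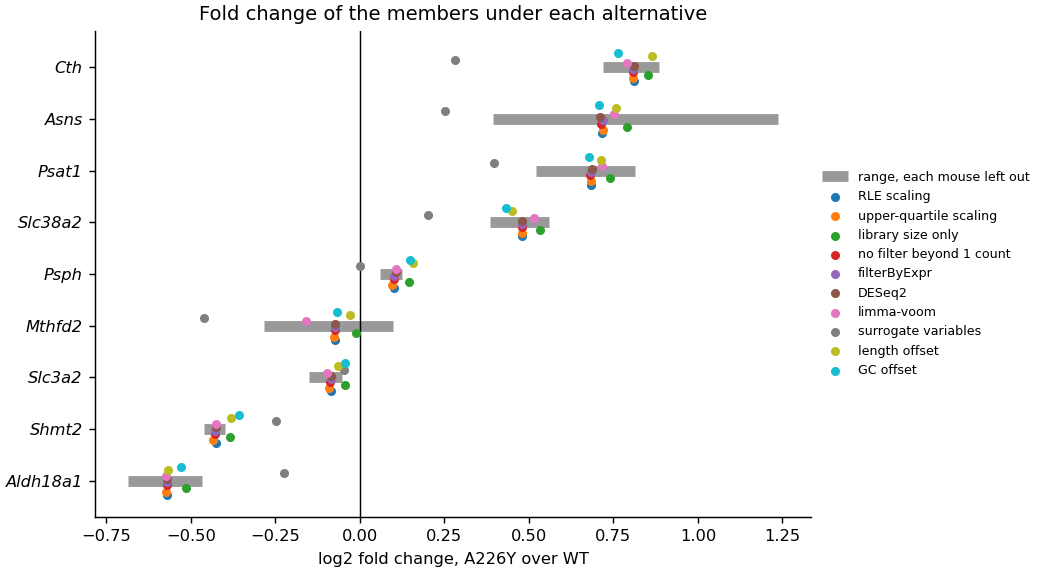
Log2 fold change (A226Y over WT) of the 9 tested members under 10 other scalings, filters and tests (points), with the range over fits that leave out each mouse in turn as a grey bar. With surrogate variables *Cth* was at 0.28 and *Shmt2* at -0.25, outside their grey bars.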

How the data were processed

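Gene counts of 18 liver libraries were used as deposited by the authors, 1 file per mouse with 22524 Ensembl gene IDs, of which 22291 matched the GENCODE M21 annotation (GRCm38). The study's methods name RSEM, whereas the submitters' processing notes list bcl2fastq, fastp, STAR, featureCounts, MultiQC and GRCm38, and the file headers name none. Whether reads were counted by strand is not given in the sources used here. Mice were grouped by the genotype label. A226Y and WT were compared with edgeR 4.0.16 (R 4.3.3) by the quasi-likelihood test, TMM scaling and Benjamini-Hochberg adjustment over 13353 genes, kept where at least 10 counts were present in 50% of the mice of one genotype, and the levels are CPM after TMM scaling. Log2 CPM used a prior count of 2. Alternatives used DESeq2 1.42.0, limma 3.58.1, sva 3.50.0, exact permutation tests, other scalings and filters, length and GC offsets, and each mouse left out. A fit without A226Y mouse 29 and WT mouse 33 was added after seeing the data. No 2 mice of a genotype had counts that agreed within sampling noise (lowest chi-square per degree of freedom 19.2 over 73 pairs). The tests were checked on simulated counts. All members were named, Rps2 and Atf4 were always given, and of each pathway list at most the 4 called genes with the lowest p; some items are not reported here. Members and lists were chosen with earlier results of these data known.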

Additional observations from a re-analysis of the deposited data

Results flagged for a closer look

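Outliers were sought with Dixon's test on log2 CPM in 18 groups (9 tested members in 2 genotypes), where chance flags about 1 group in 20. *Slc38a2* in A226Y mouse 29, at 363 CPM, lay far above the other A226Y mice, with a gap of 0.469 of the range against a critical value of 0.466. *Slc3a2* in WT mouse 33, at 52.6 CPM, lay below the other WT mice, with a gap of 0.622 of the range against a critical value of 0.526.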

How the results depend on the processing

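*Cth* and *Shmt2* were called in 29 of 30 alternatives and *Slc38a2* in 9 of 30. With 4 surrogate variables, 50 genes were called in all and 0 members in either direction; *Cth* was at 0.28, *Slc38a2* at 0.20, *Shmt2* at -0.25 and *Psph* at -0.0005, and the cause was not tested. Members called higher were 1 with upper-quartile scaling, with no filter beyond 1 count, with the length offset, with the GC offset and without both A226Y mouse 29 and WT mouse 33, and 3 with DESeq2, which added *Psat1*. Members called lower were 2 with filterByExpr, DESeq2, limma-voom and without both of these mice, each adding *Aldh18a1*. With each mouse left out, 1 to 3 members were called higher and 1 to 2 lower. Genes called in all ranged from 1255 (without WT mouse 14) to 2560 (without A226Y mouse 29). *Mthfd2* turned positive without A226Y mouse 23 (0.0048) or WT mouse 33 (0.0991), and ranged from -0.2827 to 0.0991 with each mouse left out. The shorter motif was held by 3 members and 12.2% of promoters. The median log2 fold change of the members was -0.0005 with surrogate variables and above 0 in the other alternatives. This median counts *Asns*, whose positive value the filter favoured, so no direction is read from it. Low counts limit *Asns*, *Psat1*, *Phgdh*, *Mthfd2* and *Aldh18a1*. No paired analysis was possible because the groups compared share fewer than 2 replicate numbers.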
